A study of Mus musculus with 14 samples.

Results

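The 37 genes described here encode lysosomal glycosidases, sulfatases, lipid hydrolases and peptidases, the cofactors and lumenal binding proteins that work with them, and proteins of the lysosomal membrane. They were chosen by gene name as members of these classes, with the cathepsins and the proton pump left out. The choice was made with earlier results of these data known. All 37 names were found among the 55487 genes of the count table.

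The study sequenced RNA of sorted mouse colon cells in 14 libraries. All animals carried floxed Tsc2 on both chromosomes. The cre animals (Tsc2fl/fl Lyz2cre/+) also carried 1 Lyz2 allele that drives Cre recombinase in macrophages, granulocytes and other myeloid cells, and the wt animals (Tsc2fl/fl Lyz2+/+) carried none. Lamina propria macrophages were sorted as CD45+ cells with CD11b, CD64 and MHC class II and without Ly6C, Ly6G, CD24, CD103 or SiglecF, and gave 3 cre libraries (8, 9 and 10, all male) and 3 wt libraries (2 and 4 female, 6 male). Epithelial cells were sorted as EpCAM+ CD44+ cells without CD45, and gave 4 cre libraries (5 female; 8, 9 and 10 male) and 4 wt libraries (2 and 4 female; 6 and 7 male). The age of the animals is not given in the sources used here. No group carried the recombinase with intact Tsc2, so the deletion and the Cre allele cannot be told apart. The sample names hold 4 numbers for wt mice whereas the study's own text counts 3 such animals, and p-values measure only the spread between these libraries.

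Lysosomes break down macromolecules that reach them by endocytosis, phagocytosis or autophagy. Their soluble hydrolases work at acid pH, often with a small activator protein that lifts a lipid out of a membrane, and heavily glycosylated membrane proteins line the organelle and carry products out. Macrophages, which engulf cells, microbes and debris, are known for a large lysosomal compartment. Tuberin, the product of Tsc2, restrains the kinase complex mTORC1, which works at the lysosomal surface. mTORC1 in turn acts on TFEB and TFE3, transcription factors that bind E-box motifs in the promoters of many lysosomal genes.

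Libraries held between 7269103 and 9364551 counts, and the sex read from Xist and Y-linked genes was the labelled one in 14 of 14. A single annotated ribosomal RNA gene took 19.1 to 26.4% of counts in cre macrophages against 19.5 to 20.6% in wt macrophages. In epithelial libraries this ribosomal RNA share was 7.37 to 26.7% in cre against 18.5 to 31.8% in wt. The macrophage marker Csf1r stood at 1623 ± 131 CPM in wt macrophages (SD, n = 3) and 10.4 ± 5.15 CPM in wt epithelial cells (SD, n = 4), and Epcam at 10.1 ± 5.98 and 532 ± 68.4 CPM in the same groups. CPM are counts relative to the size of their library, scaled by the TMM factors of all 14 libraries. Tsc2, counted over the whole gene, stood at 31.7 ± 4.46 CPM in cre and 35.5 ± 8.89 CPM in wt macrophages (SD, n = 3 each), with a log2 change of -0.14 and an edgeR adjusted p = 0.860. A count over all exons is a weak check of a deletion that removes some of them.

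In macrophages the lysosomal genes stood higher in cre than in wt animals for most of the list, and 6 passed the test. These 6 were Cd68, Grn, Naglu, Cd63, Lamp1 and Hexa, with log2 changes between 0.90 and 1.31. None passed in the lower direction, although 2 were lower at an unadjusted p under 0.05. All 37 genes could be tested; 31 (against 50.5% of all genes tested) had a positive and 6 a negative log2 change. The median was 0.43, against 0.0038 over all 14087 genes tested. The test was edgeR's quasi-likelihood F test with Benjamini-Hochberg adjustment over all genes tested, and a call is an adjusted p under 0.05. It called 0.944% of all genes, 0.731% as higher and 0.213% as lower, and 16.2% of the lysosomal genes.

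The groups did not overlap for 25 of the 37. All 3 cre libraries lay above all 3 wt libraries for 23 genes and below them for 2, shares to be read against 9.68% and 10.1% of all genes tested. At an unadjusted p under 0.05, 21 genes were higher and 2 lower, 23 of 37 in all, against 12.8% of all genes. Summed over the 37 genes, cre macrophages held 25564 ± 3934 CPM and wt macrophages 17506 ± 552 CPM (SD, n = 3 each). The cre libraries held 30088, 22943 and 23661 CPM (8, 9 and 10) and the wt libraries 18139, 17255 and 17124 CPM (2, 4 and 6). All cre sums lay above all wt sums, and cre library 8 was the highest of its group for 22 of the 37 genes. That library also held the largest share of mitochondrial counts of its group, 9.83% against 5.997 and 6.44% in the other two.

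**Figure D1:**
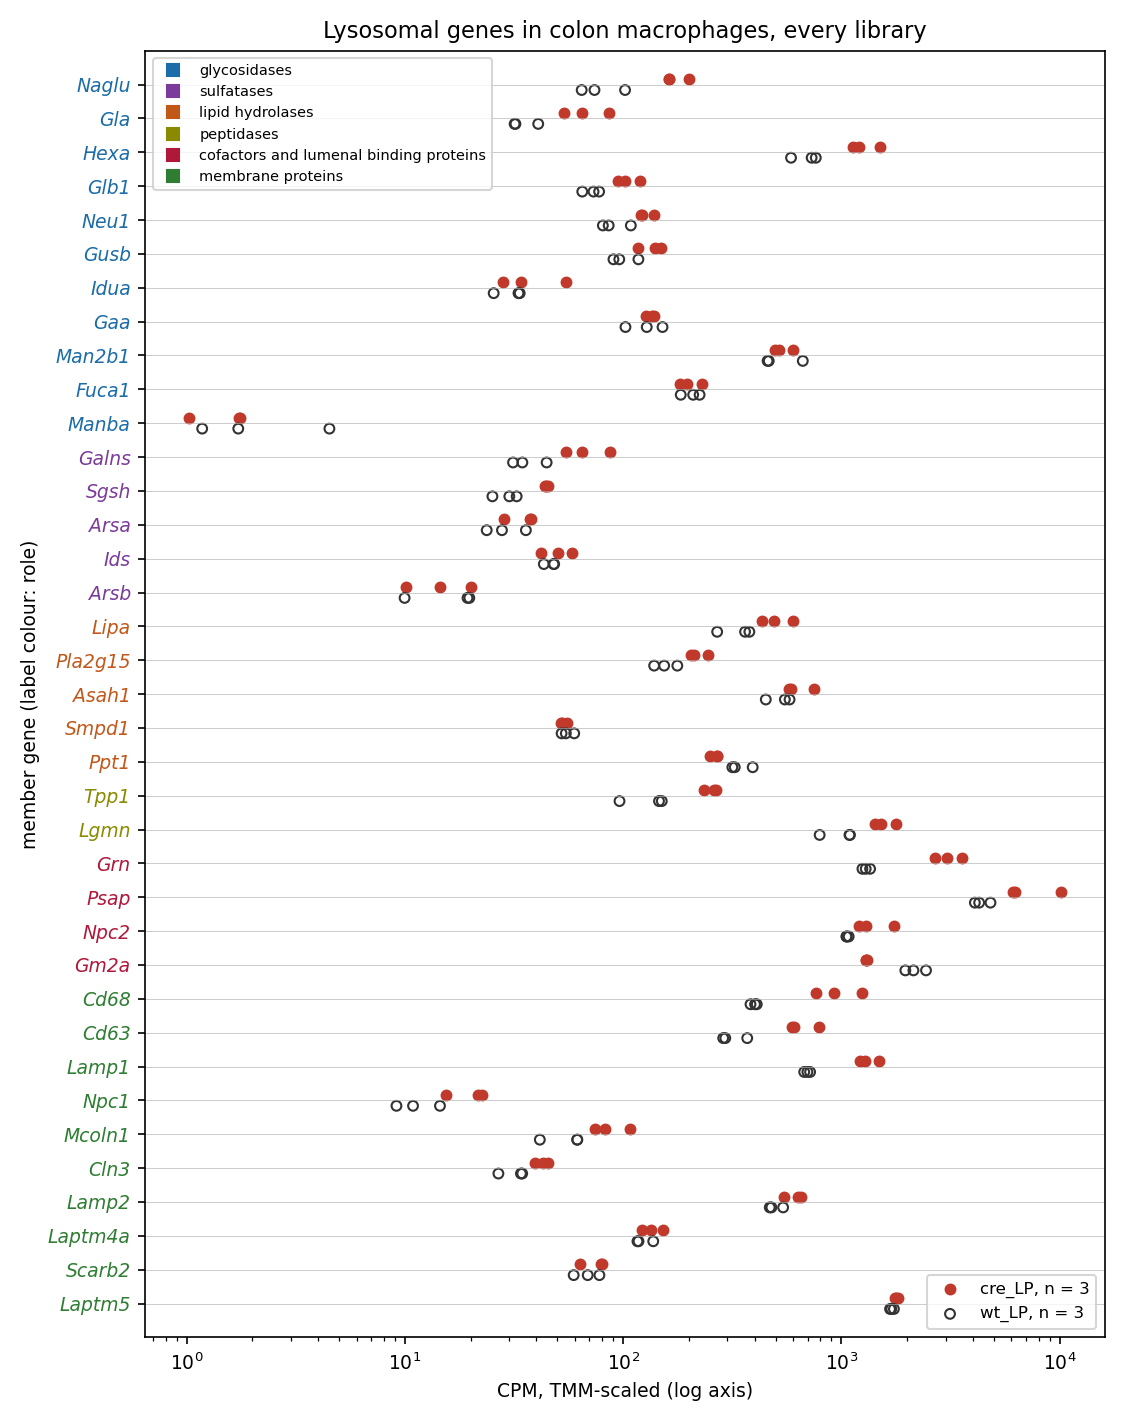
CPM of each of the 37 lysosomal genes (rows, gene names coloured by role) in the 3 cre_LP libraries (filled points) and the 3 wt_LP libraries (open points), on a log axis. The groups are separate for 25 genes, with cre above wt in 23 of them and below in Gm2a and Ppt1.

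Among the cofactors and lumenal binding proteins, Grn stood highest above wt. Grn encodes progranulin, a precursor that is cut into granulins in the lysosome. It stood at 3569, 2672 and 3052 CPM in cre macrophages (8, 9 and 10), against 1353, 1292 and 1248 CPM in wt macrophages (2, 4 and 6). Every cre library lay well above every wt library, and Grn rose by 1.27 on the log2 scale (SE 0.16, edgeR adjusted p = 0.00954). The Grn gene (ENSMUSG00000034708) lies on chromosome 11, 102430315 to 102437048 on the plus strand of GRCm38.

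Psap was the most abundant of the 37 genes in both macrophage groups. It encodes prosaposin, the precursor of the saposins that present sphingolipids to their hydrolases. Its counts were 10157, 6095 and 6262 CPM in cre and 4820.05, 4087 and 4276 CPM in wt macrophages. The groups did not overlap, but cre library 8 stood far above the other two and the gene did not pass (log2 change 0.79, SE 0.21, edgeR adjusted p = 0.158). Npc2, which hands cholesterol to the exporter Npc1, stood at 1413 ± 283 CPM in cre and 1064 ± 13.7 CPM in wt (SD, n = 3 each; log2 change 0.42, adjusted p = 0.331).

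Gm2a went the other way from the rest of its role group. It encodes the activator that presents GM2 ganglioside to hexosaminidase A, and stood at 1301, 1309 and 1294 CPM in cre macrophages, against 2441, 1963 and 2138 CPM in wt macrophages. All cre libraries lay below all wt libraries, with a log2 change of -0.73 (SE 0.14) that missed the threshold in edgeR (adjusted p = 0.0536) and passed in DESeq2. Of the summed CPM of the 37 genes, Gm2a made up 5.09% in cre and 12.5% in wt macrophages. The share of Grn was 12.1% in cre and 7.41% in wt, and that of Psap 29.4% in cre and 25.1% in wt.

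Of the 11 glycosidases, which take sugars off glycoproteins, glycolipids and glycosaminoglycans, 2 passed as higher, and 9 of the 11 log2 changes were positive. Naglu, an exoglycosidase of heparan sulfate breakdown, stood at 200.03, 162 and 162 CPM in cre and 102, 73.9 and 64.5 CPM in wt macrophages. Its groups were separate, with a log2 change of 1.14 (SE 0.19, edgeR adjusted p = 0.0303). Hexa, the alpha subunit of hexosaminidase A, stood at 1499.9, 1131 and 1207 CPM in cre and 763, 730.4 and 588 CPM in wt. Hexa differed by 0.90 on the log2 scale (SE 0.17, edgeR adjusted p = 0.0483), with no overlap. Hexa rose in cre macrophages, whereas Gm2a, the activator of the same enzyme, had a lower mean that did not pass.

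Naglu (ENSMUSG00000001751) lies on chromosome 11, 101070012 to 101077672, plus strand, and Hexa (ENSMUSG00000025232) on chromosome 9, 59539540 to 59565109, plus strand. Gla, the alpha-galactosidase that is deficient in Fabry disease, stood at 85.7, 53.5 and 64.9 CPM in cre and 40.8, 32.1 and 31.8 CPM in wt macrophages. The Gla groups did not overlap, and the log2 change of 0.98 (SE 0.21) did not pass (edgeR adjusted p = 0.0767). The beta-galactosidase Glb1 (0.57), the sialidase Neu1 (0.48) and the beta-glucuronidase Gusb (0.43) had positive log2 changes that did not pass. The iduronidase Idua (0.35), the acid glucosidase Gaa (0.08), the alpha-mannosidase Man2b1 (0.04) and the fucosidase Fuca1 (-0.0044) also did not pass, and their groups overlapped. Manba, the beta-mannosidase, was barely counted, at 1.502 ± 0.414 CPM in cre and 2.47 ± 1.79 CPM in wt (SD, n = 3 each), too few for its log2 change of -0.69 to be told from 0 (SE 0.62).

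None of the 5 sulfatases, 5 lipid hydrolases or 2 peptidases passed in edgeR. At an unadjusted p under 0.05 in edgeR there were 2 sulfatases, 3 lipid hydrolases and both peptidases, against 12.8% of all genes tested. DESeq2 called Galns, Tpp1 and Lgmn. Over all genes it called 279 as higher and 238 as lower, against 103 and 30 in edgeR. The peptidase Tpp1, which trims tripeptides from the ends of proteins, stood at 236, 259.5 and 266 CPM in cre and 96.2, 150.3 and 145.9 CPM in wt macrophages. Its groups were separate, with a log2 change of 0.97 (SE 0.20, edgeR adjusted p = 0.0692). Lgmn, the asparaginyl endopeptidase legumain, which also matures cathepsins, stood at 1521, 1775 and 1422 CPM in cre and 795, 1088 and 1094 CPM in wt (log2 change 0.68, adjusted p = 0.155). Both genes were higher in every cre library than in any wt library.

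Among the sulfatases, Galns, which works on keratan sulfate, stood at 68.8 ± 16.8 CPM in cre and 36.8 ± 6.94 CPM in wt macrophages (SD, n = 3 each), a log2 change of 0.91 (edgeR adjusted p = 0.119). Sgsh, which works on heparan sulfate, stood at 44.4 ± 0.553 CPM in cre and 29.3 ± 3.74 CPM in wt (0.62, adjusted p = 0.169). The log2 changes of Arsa, Ids and Arsb, which act on sulfatide, dermatan and heparan sulfate, lay between -0.12 and 0.27, with overlapping groups. The lipid hydrolases were divided. Lipa, the acid lipase that frees cholesterol and fatty acids from engulfed lipoproteins, stood at 507 ± 83.7 CPM in cre and 337 ± 58.7 CPM in wt (0.60, adjusted p = 0.194), and the phospholipase Pla2g15 at 219 ± 21.5 CPM in cre and 157 ± 19.3 CPM in wt (0.50, adjusted p = 0.210). The acid ceramidase Asah1 (0.28) and the acid sphingomyelinase Smpd1 (-0.04) had overlapping groups. Ppt1, which removes palmitate from proteins, stood lower in all cre libraries, at 269, 268 and 249 CPM in cre against 316, 324 and 392.1 CPM in wt (-0.38, SE 0.15, adjusted p = 0.319).

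All 10 membrane proteins had positive log2 changes in macrophages, and 3 passed. Cd68, a heavily glycosylated membrane protein of macrophage lysosomes, stood at 1238, 763 and 927 CPM in cre and 383, 409 and 402 CPM in wt. Its log2 change of 1.31 (SE 0.19, edgeR adjusted p = 0.0220) was the largest of the 37 in this comparison. Lamp1, the abundant lining protein of the lysosomal membrane, stood at 1487, 1222 and 1289 CPM in cre and 675, 719 and 698 CPM in wt (0.95, SE 0.14, adjusted p = 0.0242). Cd63, a tetraspanin of late endosomes and lysosomes, stood at 789, 591 and 604 CPM in cre and 287, 370.1 and 294 CPM in wt (1.07, SE 0.18, adjusted p = 0.0303). The groups of all 3 genes were separate.

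Cd68 (ENSMUSG00000018774) lies on chromosome 11, 69664213 to 69666153, minus strand; Lamp1 (ENSMUSG00000031447) on chromosome 8, 13159161 to 13175338, plus strand; and Cd63 (ENSMUSG00000025351) on chromosome 10, 128900989 to 128912822, plus strand. Cd63 has a counted pseudogene, Cd63-ps, at 119 ± 19.9 CPM in cre and 54.3 ± 9.45 CPM in wt macrophages (SD, n = 3 each), a log2 change of 1.15 (edgeR adjusted p = 0.0303). Reads of the gene and its copy may be split between them, so the level of Cd63 is uncertain. The libraries keep no strand, and 249 exonic bases of Lamp1 are shared with Grtp1 on the other strand, which stood at 4.51 ± 2.23 CPM in cre and 4.00 ± 0.554 CPM in wt (SD, n = 3 each). Hexa and Grn likewise share 255 and 68 exonic bases with Tmem202 and Fam171a2, each with a mean of 2.5 counts a library. Sgsh shares 955 exonic bases with Card14 on the other strand, at 0.114 CPM in cre and 0.540 CPM in wt macrophages on average. Npc1 shares 511 exonic bases with Rmc1 on the other strand, which had 97.57 counts a library on average against 84.64 for Npc1. The level of Npc1 is therefore uncertain as well.

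Of the other membrane proteins, the sterol exporter Npc1 (19.9 ± 3.91 CPM in cre, 11.5 ± 2.72 CPM in wt; log2 change 0.80) and the calcium channel Mcoln1 (88.1 ± 17.4 and 54.9 ± 11.6 CPM in cre and wt; 0.70) were separate between groups without passing (SD, n = 3 each; edgeR adjusted p = 0.239 and 0.194). Cln3 (0.43), Lamp2 (0.31) and Laptm5 (0.09) also showed no overlap. Laptm5, a lysosomal membrane protein of blood cells, was among the most abundant of the list and nearly equal between groups, at 1787 ± 29.2 CPM in cre and 1701 ± 35.3 CPM in wt. Scarb2, which carries glucocerebrosidase to the lysosome, and Laptm4a had log2 changes of 0.13 and 0.15 and overlapping groups.

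**Figure D2:**
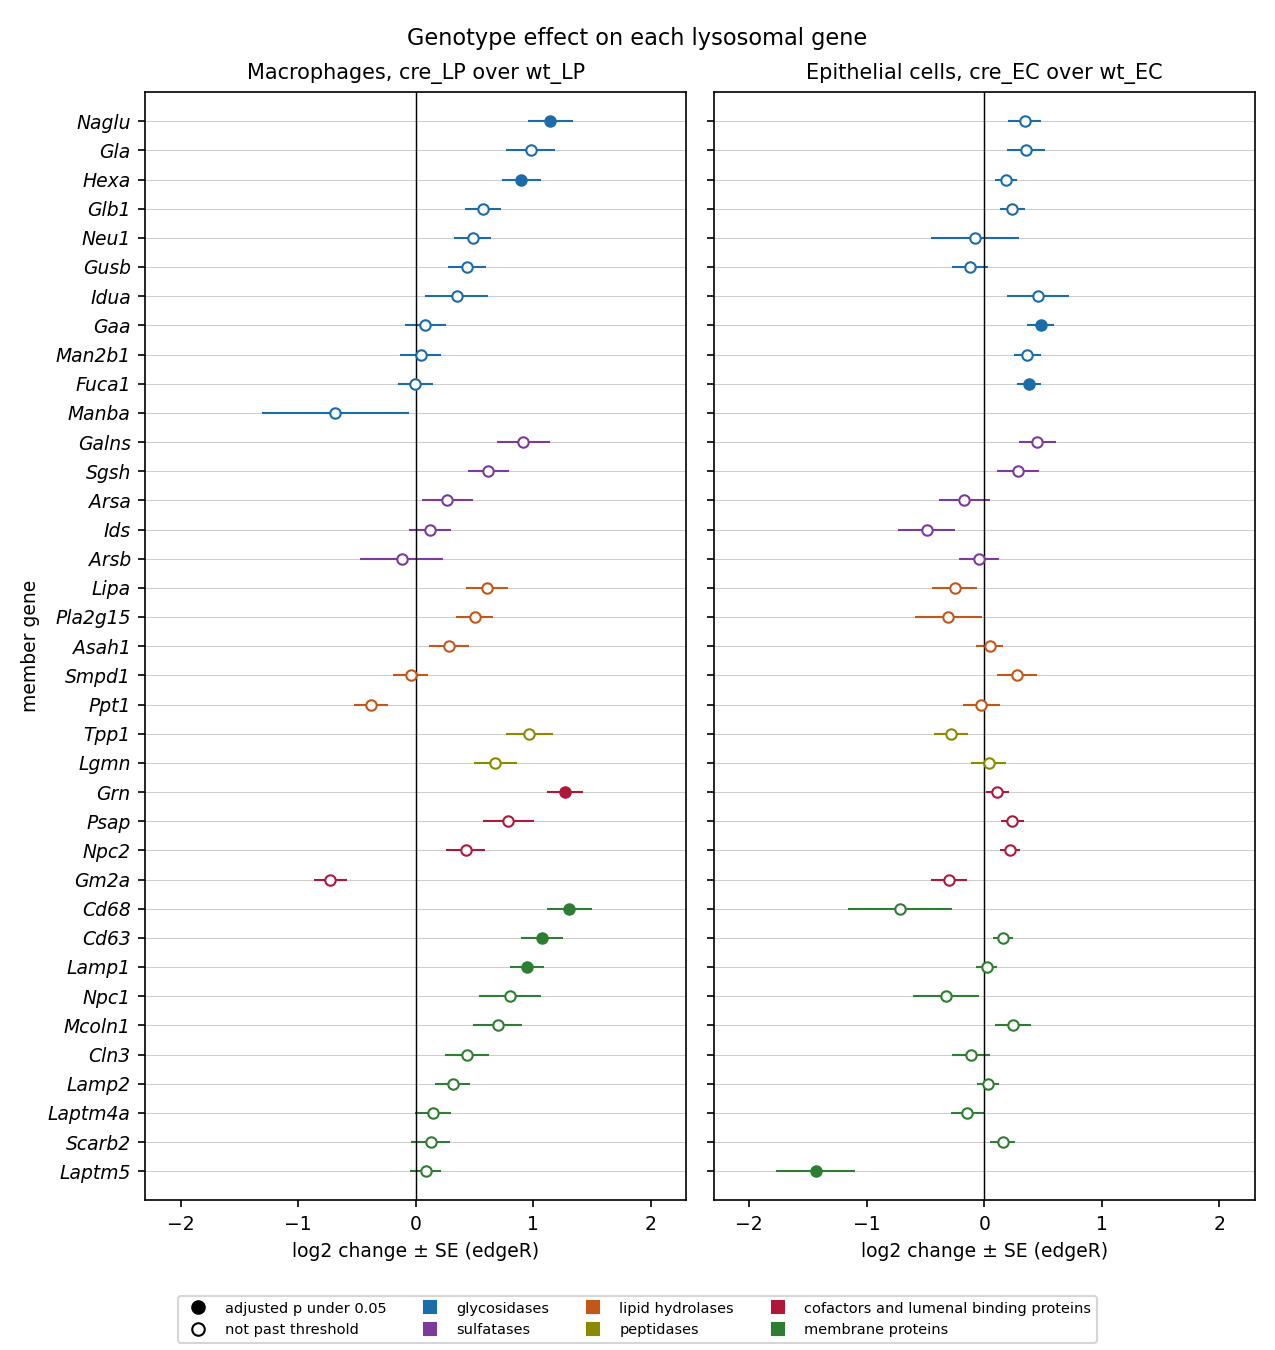
Log2 change with its SE for each lysosomal gene, cre_LP over wt_LP on the left (n = 3 each) and cre_EC over wt_EC on the right (n = 4 each), coloured by role; filled points passed an edgeR adjusted p under 0.05. In macrophages 31 of 37 points lie right of 0 and 6 are filled, while in epithelial cells 21 of 36 (44.8% of all genes tested) lie right of 0 and 3 are filled.

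The 6 macrophage calls were sensitive to single libraries. The call of Hexa was also sensitive to the scaling (edgeR adjusted p = 0.0565 with RLE factors, and 0.000133 to 0.533 over all alternatives run for Hexa). None of the 6 remained without cre library 10, wt library 4 or wt library 6; 2 remained without cre library 8 (Grn and Cd68) or wt library 2 (Naglu and Grn), and 3 without cre library 9 (Grn, Lamp1 and Cd68), with the median log2 change between 0.42 and 0.52. With sex in the model none of the 6 passed and only 2 of all genes did; none passed with the ribosomal RNA share in the model either. All cre macrophage libraries were male and, of the wt ones, only library 6 was. With sex in the model the cre libraries were thus in effect compared with wt library 6 alone. Sex and genotype cannot be told apart beyond that library. In that fit the log2 changes were 1.44 for Naglu, 1.31 for Grn, 1.28 for Cd68, 1.17 for Cd63, 1.12 for Hexa and 0.93 for Lamp1.

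Markers of other cells also differed between the macrophage groups. Of 13 dendritic cell markers tested, 12 had a negative log2 change and Itgae passed; their summed level was 1373 to 1617 CPM in cre and 2047 to 3586 CPM in wt. Of 14 fibroblast and smooth muscle markers tested, 11 were negative and Fbln1 and Mfap4 passed as lower, with sums of 1524 to 3640 CPM in cre and 4402 to 7958 CPM in wt. Of 9 monocyte markers tested, 8 were negative and Plac8 passed as lower, with sums of 602 to 873 CPM in cre and 1050.3 to 1247 CPM in wt. The 20 macrophage markers summed to between 28476 and 34735 CPM in cre and 26278 and 31325 CPM in wt; 13 had a positive log2 change and Ms4a7 passed. In the remaining marker lists no gene passed. Negative log2 changes were found for 6 of 6 eosinophil, mast cell and neutrophil markers and 10 of 11 epithelial markers. They were found for 7 of 9 B and plasma cell, 5 of 7 T and innate lymphoid and 5 of 8 endothelial and glial markers. Over all genes tested, 50.5% of log2 changes were positive and edgeR called 0.731% as higher and 0.213% as lower. In such bulk samples fewer cells of a type and less RNA per cell cannot be told apart. The part of these markers in the differences of the lysosomal genes was not tested.

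The lysosomal genes outside the 37 were followed in further lists. Among 12 cathepsins, the main lysosomal proteases, 4 passed as higher in cre macrophages, with a median log2 change of 0.49. Ctsd stood at 3940 ± 661 CPM in cre and 563 ± 157 CPM in wt (log2 change 2.83, SE 0.23, edgeR adjusted p = 0.000845), Ctsb at 13071 ± 1734 and 3512 ± 528 CPM in cre and wt (1.91, SE 0.18, adjusted p = 0.00206) (SD, n = 3 each); Ctsl (1.21) and Ctsa (0.97) also rose. Of 19 subunits of the proton pump, which acidifies the lysosome, 3 passed as higher, Atp6v0d2 (6.25), Atp6v0c (1.15) and Atp6v1a (0.99), and 17 were positive. Of 32 other lysosomal hydrolases tested, 1 passed, the dipeptidyl peptidase Dpp7 (1.52), and 24 were positive. Of 29 other membrane proteins tested, 2 passed, the chloride transporter Clcn7 (1.15) and the transporter Mfsd1 (1.00), and 24 were positive. Called were 33.3% of the cathepsins, 15.8% of the pump subunits, 3.12% of the other hydrolases and 6.9% of the other membrane proteins. Over all genes tested, 0.944% were called and 50.5% had a positive log2 change.

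In epithelial cells 3 of the 36 genes that could be tested passed. Gaa and Fuca1 rose in cre epithelial cells and Laptm5 fell. The median log2 change was 0.04, against -0.05 over all 13553 genes tested. The test called 9.17% of all genes (5.64% as higher, 3.53% as lower) and 8.33% of the lysosomal genes. All 4 cre libraries lay above all 4 wt libraries for 5 of the genes (Gaa, Man2b1, Fuca1, Npc2 and Scarb2) and below them for none, against 10.6% and 6.32% of all genes tested. The share of lysosomal genes called was thus close to the share of all genes. By role, the log2 change was above 0 for 8 of the 10 glycosidases tested (median 0.35), against 44.8% of all genes tested. Of these 10 glycosidases, 6 had an unadjusted p under 0.05 in edgeR, against 27.3% of all genes, and 2 passed. In the other roles the medians lay between -0.12 and 0.16, and 1 gene passed.

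Gaa, which digests glycogen in the lysosome, stood at 87.6, 89.7, 106 and 85.3 CPM in cre epithelial cells (5, 8, 9 and 10), against 60.7, 65.4, 60.4 and 75.9 CPM in wt epithelial cells (2, 4, 6 and 7). The groups were separate, with a log2 change of 0.48 (SE 0.11, edgeR adjusted p = 0.0209). Fuca1, which removes fucose from glycoproteins and glycolipids, stood at 491, 398, 500.006 and 446 CPM in cre and 322, 315, 375 and 384 CPM in wt, also separate (0.38, SE 0.10, adjusted p = 0.0359). The mannosidase Man2b1 was separate as well but did not pass, at 206 ± 12.8 CPM in cre and 159 ± 26.2 CPM in wt (SD, n = 4 each; 0.36, adjusted p = 0.0587). Gaa, Fuca1 and Man2b1 all had macrophage log2 changes between -0.0044 and 0.08. The call of Gaa was lost without cre library 5 or 9 or wt library 2 (adjusted p = 0.0554, 0.0942 and 0.0595), and that of Fuca1 without cre library 5, 9 or 10 or wt library 2 or 4 (0.0789 to 0.123), in the same edgeR test. Neither gene nor Laptm5 passed in males alone or with the ribosomal RNA share in the model.

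Laptm5 was near the bottom of the list in epithelial cells. It stood at 3.55, 5.51, 3.24 and 4.56 CPM in cre and 7.62, 5.35, 17.6 and 14.5 CPM in wt epithelial cells. Wt library 4 lay among the cre libraries, and wt libraries 6 and 7 lay far above the rest. It fell by 1.43 on the log2 scale (SE 0.34, edgeR adjusted p = 0.0202), and the call was lost without cre library 5, 9 or 10 or wt library 7 (0.0515 to 0.0893). Macrophage markers followed the same libraries. Of 16 tested in epithelial cells, 15 had a negative log2 change and C1qa, Cybb, Ptprc, Lyz2 and H2-Aa passed as lower. Summed over the list of 20, cre libraries held 62.1, 123, 79.2 and 81.4 CPM and wt libraries 129, 111, 217 and 221 CPM. Their part in the Laptm5 difference was not tested. In wt macrophages, Laptm5 stood at 1701 CPM and the 20 markers at 29384 CPM.

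**Figure D3:**
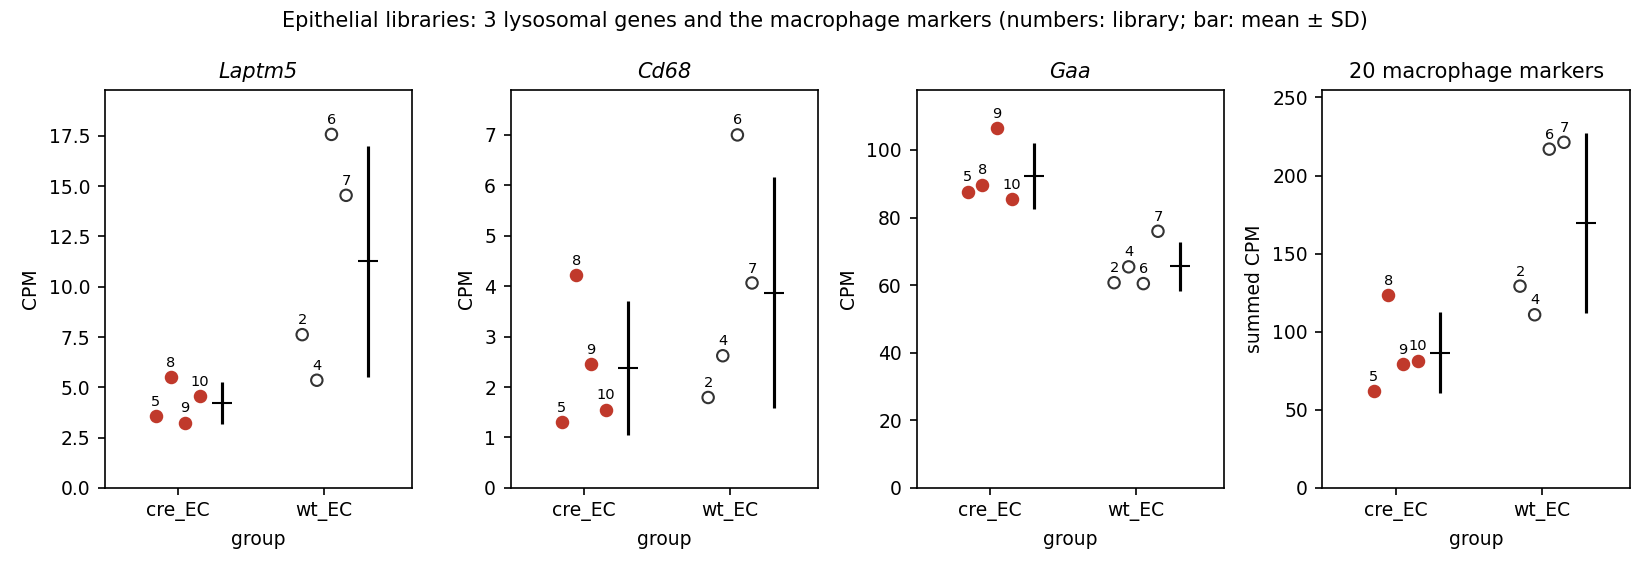
CPM of Laptm5, Cd68 and Gaa, and summed CPM of the 20 macrophage markers, in each cre_EC (filled) and wt_EC (open) library, with the library number above each point and the mean ± SD (n = 4 each) as a bar. Laptm5 and the marker sum are highest in wt libraries 6 and 7, while for Gaa all cre points lie above all wt points.

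In the further lists, the shares called in epithelial cells lay on both sides of the 9.17% of all genes. Ctsd (log2 change 0.52) and Ctsb (0.39) rose among 11 cathepsins tested (18.2%), and Atp6v0c (0.53), Atp6v0e2 (0.72), Atp6ap1 (0.41) and Atp6v1e1 (0.38) among 18 pump subunits (22.2%). Acp5 (0.50) and Fuca2 (0.36) rose among 33 other hydrolases (6.06%), and Slc15a4 (0.70) among 27 other membrane proteins (3.7%).

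The genotype effect was then compared between the cell types, as the cre effect in macrophages minus the cre effect in epithelial cells. It differed for 4 of the 37 genes, each larger in macrophages, against 0.702% of all 16375 genes tested (0.47% larger and 0.232% smaller in macrophages). For Grn the macrophage and epithelial changes were 1.27 and 0.11, with a difference of 1.13 (SE 0.17, edgeR adjusted p = 0.00738). For Lamp1 they were 0.95 and 0.02, with a difference of 0.90 (SE 0.15, adjusted p = 0.0127). For Cd63 they were 1.07 and 0.16, with a difference of 0.89 (SE 0.19, adjusted p = 0.0357). Tpp1, which had not passed in macrophages alone, had the largest difference of the 4, with 0.97 in macrophages, -0.28 in epithelial cells and a difference of 1.23 (SE 0.24, adjusted p = 0.0274).

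Grn and Lamp1 kept this call when any 1 library was left out. Tpp1 lost it in 7 and Cd63 in 11 of the 14 such fits, with adjusted p of up to 0.0935 and 0.102. With edgeR, and with DESeq2, 0 genes of the list had an effect that passed as smaller in macrophages; 2 had an unadjusted p under 0.05 in edgeR, Gm2a (-0.45) and Fuca1 (-0.41). In macrophages Cd68, Hexa and Naglu had passed, but their differences from the epithelial effect, 1.9985, 0.69 and 0.77, did not (edgeR adjusted p = 0.0860, 0.108 and 0.176).

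Without the recombinase, macrophages held more of most of these transcripts than epithelial cells. Of the 37 genes, 19 were at least 2-fold higher in wt macrophages with an edgeR adjusted p under 0.05 and 1, Glb1, was lower, against 27.4% and 21.5% of all 16375 genes tested (49% in all). The median log2 difference was 1.32, against 0.03 over all genes. The groups did not overlap for 27 genes that were higher and 3 that were lower in wt macrophages, against 32.1% and 29% of all genes.

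The steepest differences belonged to Laptm5 (log2 difference 7.25), Cd68 (6.72) and Gm2a (5.81). Laptm5 stood at 1701 ± 35.3 CPM in wt macrophages and 11.3 ± 5.74 CPM in wt epithelial cells, Cd68 at 398 ± 13.4 and 3.87 ± 2.29 CPM, and Gm2a at 2181 ± 242 and 38.8 ± 7.54 CPM in the same groups (SD, n = 3 and 4). Lipa (5.02), Lgmn (4.46), Pla2g15 (4.36), Ppt1 (3.60) and Psap (3.34) followed. Glb1 stood at 71.9 ± 6.41 CPM in wt macrophages and 157 ± 19.2 CPM in wt epithelial cells (log2 difference -1.13, SE 0.14, adjusted p = 2.52e-06). Cd63 (-0.93) and Fuca1 (-0.76) were also lower in wt macrophages, with no overlap, but by less than 2-fold.

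Levels of different genes were ordered on the deposited FPKM, which divide counts by gene length. In cre macrophages the order began with Psap (2249 ± 635 FPKM), Grn (1091 ± 136), Lgmn (644 ± 81.5), Cd68 (639 ± 144), Laptm5 (568 ± 6.37) and Hexa (528 ± 68.2). In wt macrophages it began with Psap (1313 ± 85.7 FPKM), Laptm5 (537 ± 15.8), Grn (455 ± 12.1), Gm2a (433 ± 39.0) and Lgmn (404.5 ± 77.0) (SD, n = 3 each). Psap stood clear of the next gene in both groups. Neighbours in the order lay within 1 SD of each other from Lgmn to Hexa in cre macrophages and from Grn to Lgmn in wt macrophages, so the order there is not resolved.

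The epithelial order was led by other genes. In cre epithelial cells Cd63 (359.9 ± 15.9 FPKM), Psap (145 ± 18.2), Fuca1 (139.6 ± 14.2) and Lamp1 (128 ± 7.65) came first, and in wt epithelial cells Cd63 (313.5 ± 22.2 FPKM), Lamp1 (123 ± 7.83), Psap (119 ± 6.41) and Fuca1 (104 ± 11.7) (SD, n = 4 each). Cd63 stood clear of the next gene in both groups, while neighbours from Psap to Lamp1 in cre and from Lamp1 to Psap in wt lay within 1 SD of each other. Manba, the lowest of the 37 in all 4 groups, had 0.339 FPKM in cre and 0.546 FPKM in wt macrophages.

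**Figure D4:**
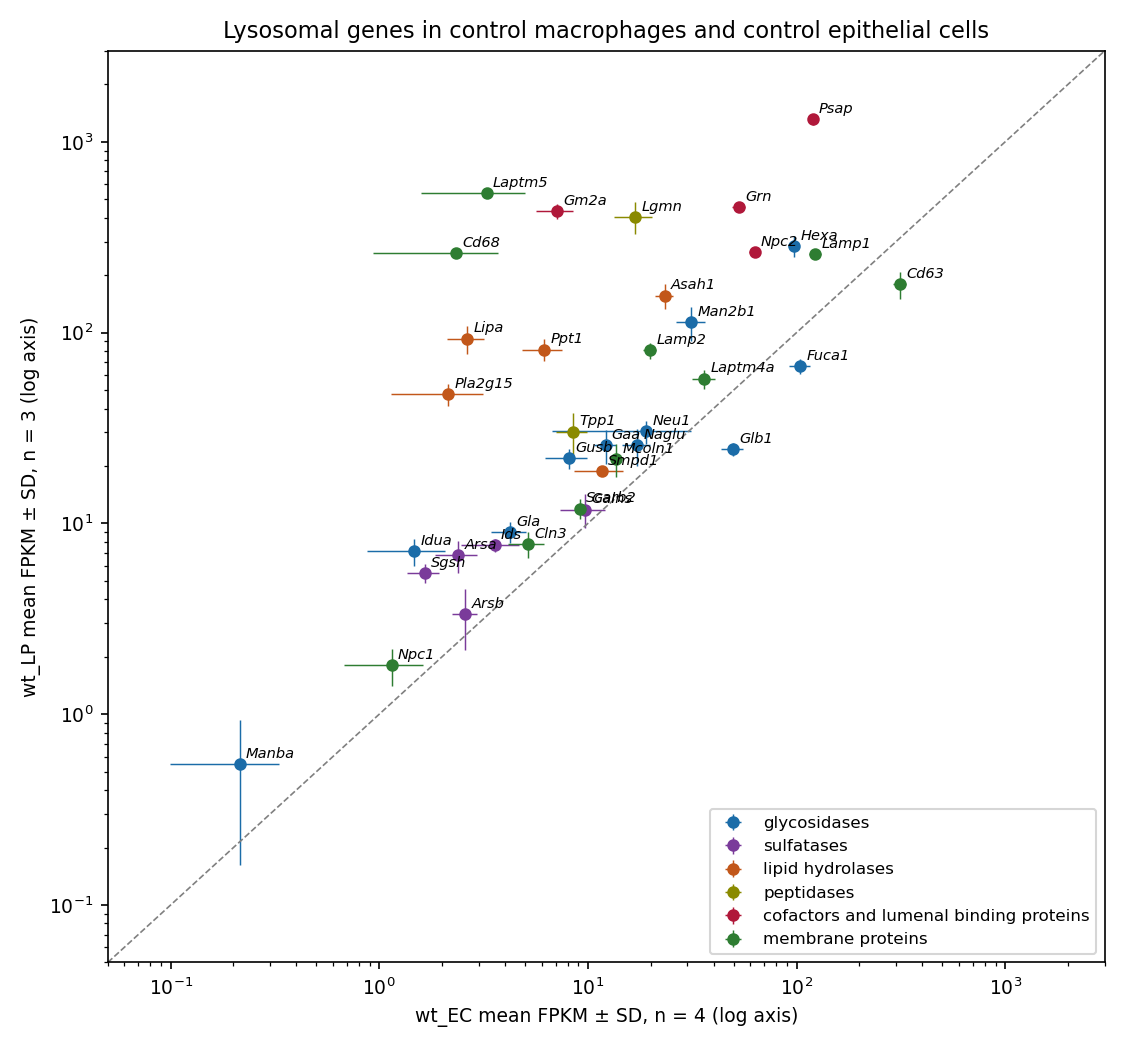
Mean FPKM ± SD of each lysosomal gene in wt_LP (vertical axis, n = 3) against wt_EC (horizontal axis, n = 4), both on log axes, coloured by role; the dashed line marks equal values. Most genes lie above the line, Laptm5, Cd68, Gm2a and Lipa farthest, while Cd63, Fuca1 and Glb1 lie below it.

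The summed level gave the 4 groups an order. The 37 genes summed to 25564 CPM in cre macrophages, 17506 CPM in wt macrophages, 4260.5 ± 219 CPM in cre epithelial cells and 3761 ± 91.8 CPM in wt epithelial cells (SD, n = 4 each for epithelial cells). Neighbouring groups in this order did not overlap: the cre epithelial libraries held 3999 to 4521 CPM and the wt epithelial libraries 3645 to 3869.7 CPM. Abundant genes weigh most in such a sum, and the median log2 change over the genes tested in epithelial cells was only 0.04. In macrophages cofactors and lumenal binding proteins made up the largest part of the sum, at 13316 CPM in cre and 8936 CPM in wt, whereas in epithelial cells glycosidases (1444 CPM in cre, 1176 CPM in wt) and membrane proteins (1409 and 1326 CPM in cre and wt) took the largest parts.

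**Figure D5:**
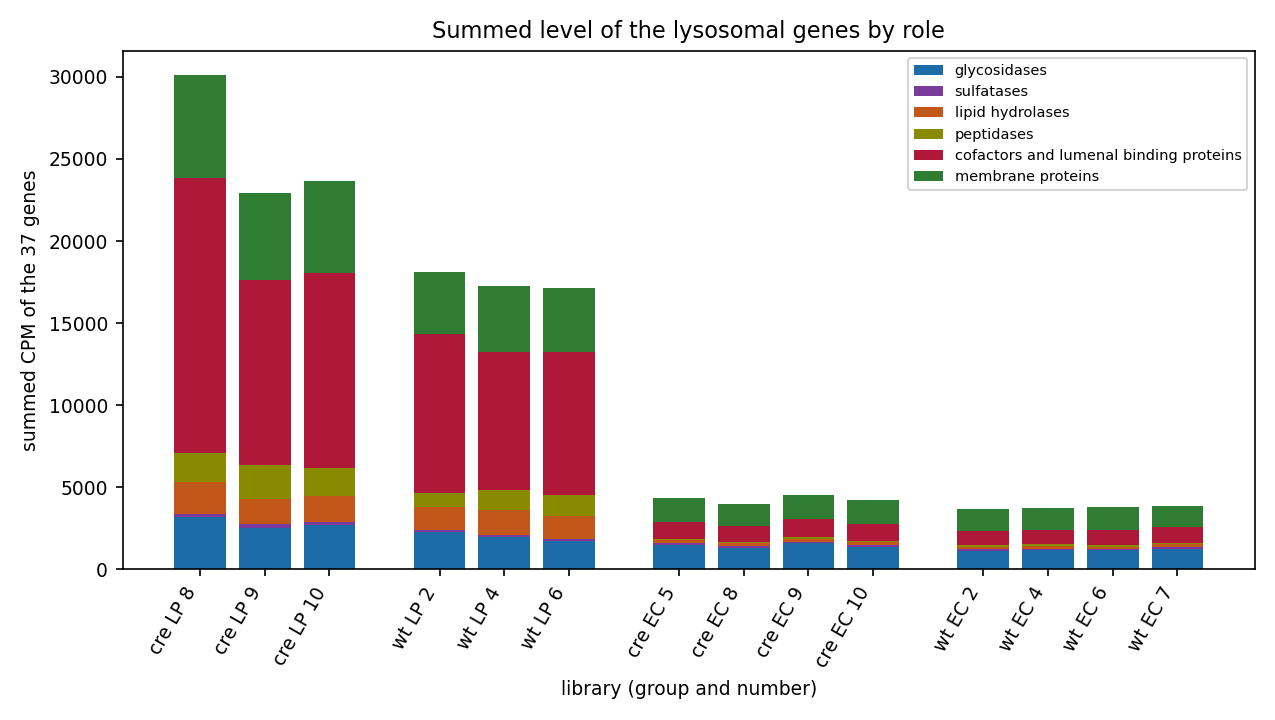
CPM summed over the 37 lysosomal genes in each library (bars from 0), split by role, with cre left of wt in macrophages (LP) and epithelial cells (EC). The cre_LP bars reach 22943 to 30088 CPM and the wt_LP bars 17124 to 18139 CPM, and no epithelial bar exceeds 4521 CPM.

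Promoters were read for the E-box CACGTG, for TCACGTGA and for the CLEAR palindrome, the element bound by TFEB and TFE3, which extends TCACGTGA by a G before it and a C after it; each reads the same on both strands and each longer form holds the shorter. RefSeq windows on GRCm38.p6, from 250 bases before to 50 bases after a gene's start, were matched for 34 of the 37 genes by symbol. CACGTG was present in 10 of the 34 (29.4%): Arsa, Cln3, Gaa, Gla, Glb1, Lamp1, Lgmn, Mcoln1, Naglu and Sgsh. Of all 27025 genes with such windows, 2187 (8.09%) held it. TCACGTGA was present in Cln3, Gla and Mcoln1 (8.82%, against 1.12% of all genes) and the CLEAR palindrome in Cln3 (2.94%, against 0.37%). The sequences below are shown because they belong to the 2 called genes with the motif, Lamp1 and Naglu, and to the 3 genes with the longer form; capitals mark CACGTG, and each runs 5′ to 3′ on the gene's strand.
Lamp1 (chr8:13159080-13159160, plus strand): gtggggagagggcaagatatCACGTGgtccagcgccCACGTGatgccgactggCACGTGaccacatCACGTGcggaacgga
Naglu (chr11:101070009-101070038, plus strand): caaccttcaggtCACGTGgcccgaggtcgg
Gla (chrX:134601174-134601252, minus strand): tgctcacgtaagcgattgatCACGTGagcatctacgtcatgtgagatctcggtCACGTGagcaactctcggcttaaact
Mcoln1 (chr8:3500462-3500491, plus strand): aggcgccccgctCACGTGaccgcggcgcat
Cln3 (chr7:126583340-126583369, minus strand): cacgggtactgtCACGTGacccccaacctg

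Lamp1 held 4 copies, whose first bases lay 61, 45, 28 and 15 bases before the start; no other of the 34 held more than 2. Naglu held 1 copy at 73 bases, Gla 2 at 227 and 194 bases, and Mcoln1 2 at 71 and 45 bases before the RefSeq start. The Naglu copy and the nearer Mcoln1 copy lie inside the gene as the annotation behind the gene coordinates above places it, and so after that annotation's start. The Cln3 and Lgmn windows with the motif belong to internal starts listed by RefSeq, and the windows at their outermost starts held no copy. In macrophages the log2 change was above 0 for all 10 genes with CACGTG (median 0.65), and 2 were called; of the 24 without it, 18 were positive, with a median of 0.33, and 4 were called. Over all genes tested with a window, the median was 0.04 for 1117 with the motif and 0.01 for 8383 without it, with 1.43% and 0.823% called. Grn, Cd68, Cd63 and Hexa rose and held no copy in these windows. A match describes letters in a window and not binding.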

How the data were processed

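Full-length cDNA was made from sorted cells with Smart-seq2, which keeps no strand, and sequenced as single reads, per the labels' protocols. STAR 2.5.2b, Picard 2.19.2, DESeq2 1.24.0 and GRCm38 are named in the submitters' processing notes; the sources used here do not give their roles, the read counter or the annotation. The authors deposited raw counts per gene and a table of FPKM, which equalled counts divided by a value per gene and a factor per library to within 1.78e-14.

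The test of the counts was that of edgeR 4.0.16 under R 4.3.3 (TMM scaling, filterByExpr with a minimum count of 10, robust quasi-likelihood F test, adjusted p under 0.05 over all genes tested), within each cell type and, for the remaining comparisons, on all 14 libraries in 4 groups; between cell types a 2-fold difference was also required. The SE was taken as the log2 change, without its sign, over the square root of F. Depth limits the precision of each count. FPKM were used for levels between genes and in an alternative with limma 3.58.1 on log2(FPKM + 1). The other alternatives were RLE factors, DESeq2 1.42.0, no filter, a pseudocount of 0.1, covariates, males only, a replicate block, removal of a GC and length trend, and leaving out each library. Scripts were tested on simulated data. The members and lists were chosen with earlier results of these data known. Every member could be named in macrophages; elsewhere those past the threshold (at most 8 a direction) and, of other lists, at most 6. Genes singled out beyond this, for separate groups or for their place in the FPKM order, were chosen after their values were seen.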

Additional observations from a re-analysis of the deposited data

Results flagged for a closer look

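Within the epithelial groups of 4 libraries, 74 sets of values (37 genes in 2 groups) were searched for a library whose gap to its nearest neighbour exceeded 0.829 of the group's range. Chance alone flags about 1 in 20 such sets, and 6 were found. In cre epithelial cells Lipa stood apart in library 9 (9.63 CPM, against 8.45 to 8.57 CPM in the others) and Lamp2 in library 8 (133.4 CPM, against 138.1 to 138.8 CPM). In wt epithelial cells 3 of the 4 flags fell on library 6, where Neu1 stood at 121.3 CPM (others 36.4 to 47.9 CPM), Npc1 at 12.7 CPM (others 5.99 to 6.83 CPM) and Glb1 at 128.6 CPM (others 164 to 170.1 CPM). Gm2a stood at 49.9 CPM in wt library 7 (others 33.5 to 36.3 CPM). Wt library 6 also had the largest ribosomal RNA share of all 14 libraries, 31.8%. The part of that share in these values was not tested.

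The genotype effect of 4 genes differed between macrophages and epithelial cells in the test of the difference itself (edgeR, log2, macrophage minus epithelial): 1.23 for Tpp1, 1.13 for Grn, 0.90 for Lamp1 and 0.89 for Cd63. The macrophage effect was the larger one in each.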

How the results depend on the processing

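In macrophages 6 genes were higher and 0 lower; DESeq2 gave 11 and 1, no filter 10 and 1, all 14 libraries in one fit 10 and 1, limma on FPKM without a filter 3 and 0, and sex as a covariate, males only (1 wt library) and the ribosomal RNA share as a covariate 0 and 0. limma with either pseudocount and removal of the GC and length trend gave 6 and 1. The 1 lower gene was Gm2a each time. Leaving out 1 library gave 0 to 3 higher and 0 lower, with the median log2 change between 0.42 and 0.52. In epithelial cells 2 were higher and 1 lower; no filter gave 4 higher, FPKM without a filter, one fit, males only and the ribosomal share 0 and 0, the GC and length trend 0 higher and a median of -0.025 (sign turned), and a 2-fold minimum 0 higher. Its median was 0.11 with a pseudocount of 0.1 and 0.12 in males. Leaving out 1 library gave 0 to 5 higher, 0 to 1 lower and a median of 0.029 to 0.13. Between cell types 1 gene was lower, and 0 with limma or with the mean of cre and wt animals, whose medians were 1.25 and 1.56; leaving out 1 library gave 1 to 2 lower and a median of 1.19 to 1.43. For the difference of effects 4 genes passed, 7 with DESeq2 and 2 to 4 when 1 library was left out, with a median of 0.37 to 0.52. The calls over all genes, higher and lower, moved as well. In macrophages they were 103 and 30, 279 and 238 with DESeq2, 179 and 120 without a filter, and 238 and 136 in one fit. Sex as a covariate gave 2 and 0 there, and the ribosomal RNA share 18 and 0. In epithelial cells they were 765 and 478, 1027 and 791 without a filter, and 1141 and 806 without cre library 8. For the difference of effects they were 77 and 38, and 266 and 269 with DESeq2. The cause of these changes was not tested.

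Macrophage and epithelial libraries share mouse numbers, but the labels do not say that a number marks an animal, and deviations of same-numbered libraries correlated at -0.03 to 0.09, with 3 of 6 macrophage libraries closest to their own number, all wt. With a replicate block on that number 0 of the 4 differences passed in edgeR (adjusted p 0.210 to 0.286; log2 0.83 to 1.12), 8 in place of 115 of all genes did, and 20 and 1 genes differed between cell types.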

Other observations

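Genes that deliver or activate lysosomal enzymes had a median log2 change near 0 in macrophages. Of 11 such genes, among them the mannose phosphate receptors M6pr and Igf2r, the transferase Gnptab and the sulfatase-activating enzyme Sumf1, 0 passed in macrophages with edgeR and 1 with DESeq2, 1 had an unadjusted p under 0.05 in edgeR (Gga2 in both tools), and 5 log2 changes were positive and 6 negative, with a median of -0.04. Over all genes tested in macrophages, 12.8% had an unadjusted p under 0.05 in edgeR and 50.5% of log2 changes were positive. M6pr stood at 114 ± 16.3 CPM in cre and 132 ± 18.8 CPM in wt macrophages (SD, n = 3 each). The group summed to 376 ± 8.97 CPM in cre and 356 ± 8.81 CPM in wt macrophages, against 235 ± 10.2 CPM in cre and 263 ± 16.6 CPM in wt epithelial cells.

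Levels differed widely among the MiT/TFE factors and their Rag and folliculin regulators. Of 10 tested in macrophages 0 passed with edgeR and 1, Rragd, with DESeq2. At an unadjusted p under 0.05 in edgeR there were 4, against 12.8% of all genes tested. Of the 10 log2 changes 8 were positive, against 50.5% of all genes tested. Tfeb stood at 17.1 ± 1.76 CPM in cre and 19.2 ± 5.001 CPM in wt macrophages, Tfe3 at 86.3 ± 11.5 CPM in cre and 76.1 ± 5.38 CPM in wt (SD, n = 3 each). Rragd, a Rag GTPase, stood at 9.36 ± 4.48 CPM in cre and 1.19 ± 0.943 CPM in wt macrophages (log2 change 2.95, edgeR adjusted p = 0.104). In epithelial cells it fell, at 0.582 ± 0.0762 CPM in cre and 2.38 ± 0.849 CPM in wt (SD, n = 4 each; -2.002, edgeR adjusted p = 0.00978; DESeq2 gave no adjusted p), and the difference between the cell types was 4.92 (SE 0.77, adjusted p = 0.00865). The transcript was the 1 gene of this list that passed in epithelial cells, at under 3 CPM on average in either epithelial group. In epithelial cells Rragd passed the filter on low counts only through the wt group. Its fall there thus rests on few counts in cre epithelial cells. In wt macrophages its counts were likewise too low to pass the filter, so the change of 2.95 rests on the cre group. The difference of 4.92 rests on few counts in both cre epithelial cells and wt macrophages.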
